A study of Arabidopsis thaliana with 42 samples.

Results

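The comparison described here set seedlings lacking ARP6 against seedlings lacking VIL1, both grown at 22 °C. It used 4 of the 42 samples of the series, chosen by their labels: 2 RNA-seq libraries of arp6 and 2 of vil1. The other 8 RNA-seq libraries are wild type (WT) at 22 and 27 °C, vil1 at 27 °C and an arp6vil1 double mutant at 22 °C; 30 chromatin samples were not analysed here. The RNA-seq plants were Arabidopsis thaliana of the Col-0 ecotype, sampled as 14-day-old seedlings. The vil1 plants carried the vil1-1 allele, while the labels name no allele for arp6. The growth notes list both long and short days without assigning one to each sample, and all samples share 1 stated harvest hour. Nothing in the labels says that libraries of a group came from separate cultures, so the tests measure the spread between these libraries, which may be technical.

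ARP6 is an actin-related subunit of the SWR1 complex, which exchanges histone H2A for the variant H2A.Z in nucleosomes. VIL1, also called VRN5, is a PHD-finger protein that works with Polycomb Repressive Complex 2, the enzyme that places the silencing mark H3K27me3. Both proteins are known from flowering control: ARP6 is needed for full transcription of the floral repressor FLC, and VIL1 for silencing FLC after cold. Plants lacking ARP6 are also known for a growth habit at moderate temperature that resembles warm-grown plants. The comparison therefore places loss of an H2A.Z loader beside loss of a Polycomb partner in seedlings of the same stated ecotype, age and temperature.

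The labelled genotypes were read first from the 2 target genes. ARP6 (AT3G33520) stood at 0.398 and 0.207 RPKM (reads scaled by gene span and library depth) in arp6, at 14.4 and 14.1 in vil1 and at 14.4 and 13.6 in WT. The arp6 libraries thus lay far below the rest, with a difference of -3.55 ± 0.11 (SE) on the log2(RPKM + 1) scale and a limma adjusted p of 1.23e-08. VRN5 (AT3G24440) stood at 5.13 and 5.38 RPKM in vil1, at 8.69 and 8.1 in arp6 and at 6.71 and 6.67 in WT. It was lower in vil1 than in arp6 by 0.59 ± 0.08 (adjusted p = 0.000155), whereas its difference from WT in vil1, -0.30 ± 0.08, did not pass (adjusted p = 0.0669). The position of the vil1-1 lesion is not in the sources used here, so reads from the rest of that gene do not check the label.

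The arp6 libraries stood apart from the other RNA-seq libraries in ways that touch every result. In them 3329 and 3217 nuclear protein-coding genes had no read, against 36 and 34 in vil1, and the 10th percentile of coding genes was 0 RPKM against 0.665 and 0.702. Recovered depths, in units of 1e6 reads, were 54.6 and 52.5 in arp6 and 73.5 and 86.9 in vil1. Chloroplast genes took 4.07% and 4.61% of the summed RPKM in arp6 and 7.57% and 7.16% in vil1. Longer genes also tended to be higher in arp6: Spearman's rho between gene span and the log2 difference was 0.504 over 29887 genes and 0.342 over the 7647 with a mean of 10 RPKM or more. Library preparation and genotype cannot be told apart with these samples.

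On the deposited scale 76.0% of the 31454 features tested passed at an adjusted p under 0.05, 6329 of them higher and 17562 (55.8%) lower in arp6. That split moved with the scaling: 7926 higher and 9129 lower after subtracting a background from each library, 9014 and 8875 after removing the length trend, 8817 and 7834 after quantile normalization, and 9182 and 13323 after centring on the median gene. The median difference over all features was -0.47, -0.09, -0.02, 0.02 and -0.21 on these 5 scales in the same order. Below, "higher" and "lower" are therefore kept for genes that passed in the same direction under all 5 scalings, and other members are given as values. By this rule 32.3% of features passed, 5346 (17.0%) higher in arp6 and 4816 (15.3%) lower, and these shares are set beside each gene group. They depend on expression level: 2.495% were higher and 4.326% lower below a mean of 2 RPKM. From 10 to 50 RPKM 26.82% were higher and 19.67% lower, so lists of well-expressed genes have a larger background than the shares over all features. Features without a RefSeq span could not pass, as the length trend was fitted on 29887 of the 31454. The plot of gene levels shows both sets, and the plot of calls by expression level shows where the rule acted: below a mean of 2 RPKM 77.98% of features passed as lower on the deposited scale and 4.326% did under all 5 scalings.

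**Figure D1:**
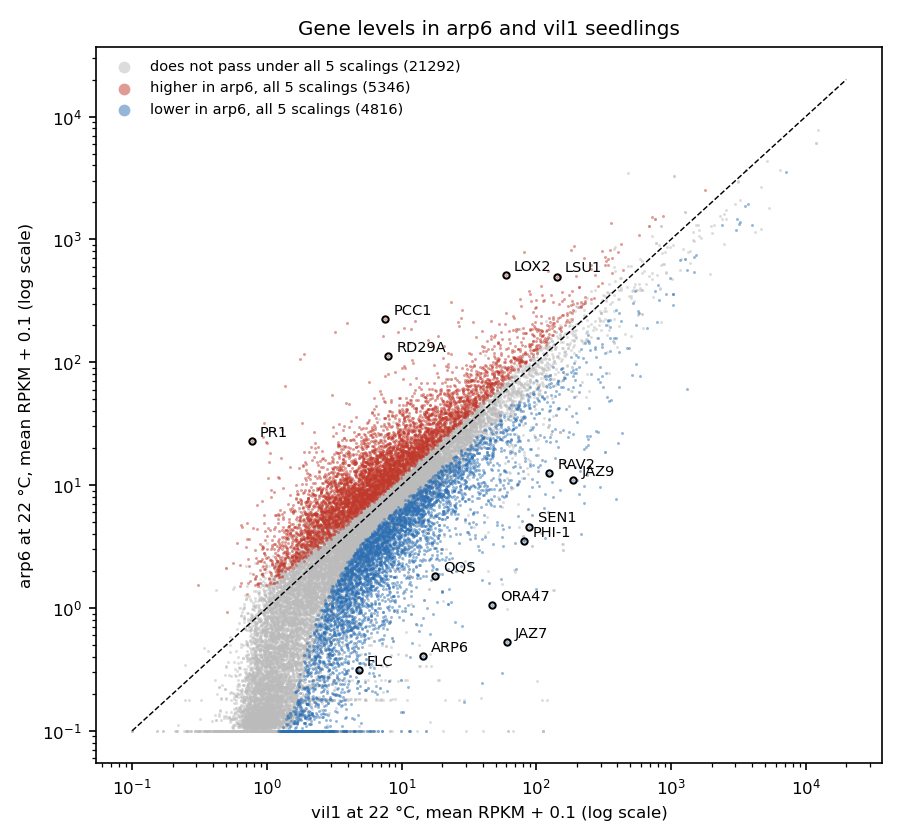
Mean RPKM of 31454 features in arp6 (vertical axis) against vil1 (horizontal axis), both on log scales after adding 0.1; 5346 features in red were higher and 4816 in blue lower in arp6 under all 5 scalings, 21292 in grey were not, and circles mark genes described in the text. The cloud bends below the dashed line of equality at low levels, where many features sit at the floor in arp6.

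**Figure D2:**
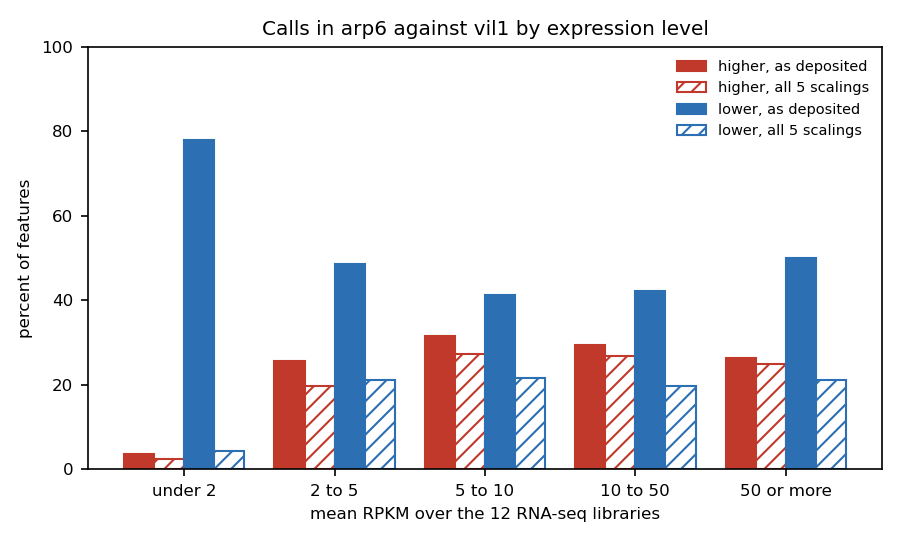
Percent of features (vertical axis) higher or lower in arp6 than in vil1 in 5 bins of mean RPKM; filled bars use the deposited scale and hatched bars the calls that held under all 5 scalings. In the lowest bin the share called lower is 77.98% on the deposited scale and 4.326% under all 5 scalings, while from 10 to 50 RPKM it is 42.1% and 19.67%.

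The genes with the largest excess in arp6 encoded defence proteins and chaperones of the endoplasmic reticulum (ER). PCC1, a small membrane protein induced by pathogens and under circadian control, stood at 206.1 and 241.8 RPKM in arp6 against 9.28 and 5.66 in vil1. The difference was 4.76 ± 0.38 on the log2 scale (limma adjusted p = 3.51e-06), and WT lay at 10.95 and 26.0 RPKM, nearer to vil1. PR1, the classical salicylic acid marker, stood at 19.0 and 26.7 RPKM in arp6 against 0.332 and 1.01 in vil1, a difference of 3.85 ± 0.22. LURP1, a gene needed for full resistance to downy mildew, had 17.43 and 27.2 RPKM against 1.00 and 0.770. Libraries of arp6 and vil1 that did not overlap were a condition for choosing these 3 genes.

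The ER chaperones formed the second block of large excesses. SHD, the ER form of HSP90, stood at 147.3 and 179.7 RPKM in arp6 and at 6.66 and 7.71 in vil1, a difference of 4.33 ± 0.29 (adjusted p = 1.34e-06). BIP1 and BIP2, the ER HSP70 proteins, had 203.1 and 227.9 and 179.7 and 203.4 RPKM in arp6 and between 9.65 and 13.4 in vil1. These BIP genes are near-identical copies, so the division of reads between them is uncertain. BIP3, the stress-induced member of the family, had 11.8 and 18.6 RPKM against 0.956 and 0.909. In WT, SHD, BIP1 and BIP2 lay between 5.33 and 8.71 RPKM, and the differences of vil1 from WT did not pass (adjusted p of 0.43, 0.15 and 0.17).

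The remaining genes among the 12 largest excesses had mixed roles. RD29A, a cold- and drought-induced protein, had 126.1 and 98.5 RPKM in arp6 against 7.16 and 8.63 in vil1. BGLU28, a glucosidase induced by sulfur shortage, had 158.8 and 130.3 against 9.83 and 12.6. NUDT24, a Nudix hydrolase, showed 222 and 151.8 against 11.7 and 11.5. PCR1 of the cadmium-resistance family, the cytochrome P450 CYP71A12 of indole defence metabolism and the wall-associated kinase WAK1 were 37.2-fold, 23.0-fold and 18.4-fold higher in mean RPKM. All 12 were also higher in arp6 than in WT under all 5 scalings, where 18.0% of all features were. They were chosen with the same arp6 libraries, so this gives no separate support.

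The 12 largest deficits in arp6 had mixed roles, and JAZ7, JAZ9 and ORA47 among them belong to jasmonate signalling. JAZ7, a repressor of jasmonate responses that jasmonate itself induces, stood at 0.159 and 0.703 RPKM in arp6, at 59.9 and 60.4 in vil1 and at 62.0 and 72.2 in WT. The difference from vil1 was -5.44 ± 0.18 (adjusted p = 2.12e-08). JAZ9, of the same family, had 11.3 and 10.4 RPKM in arp6 against 189.9 and 185.1, and ORA47, an AP2/ERF activator of jasmonate synthesis, 0.820 and 1.10 against 47.4 and 46.0. ORA47 overlaps another annotated locus, and the labels do not say whether counting used strand. In these 3 genes WT lay above vil1, and both arp6 libraries lay below all others.

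Others among the 12 have roles in stress or are of other kinds. OXS3, linked to oxidative stress tolerance, had 1.26 and 2.71 RPKM in arp6 against 72.2 and 68.0 in vil1. NAC3, a NAC transcription factor of the abscisic acid and jasmonate pathways, had 1.22 and 1.96 against 40.5 and 38.5. PHI-1, a phosphate-induced cell wall gene, had 4.04 and 2.79 against 82.4 and 79.7. BT2, a BTB-domain scaffold protein, HSPRO2, a basal resistance gene, and J8, a chloroplast J-domain protein, were 20.7-fold, 18.6-fold and 16.3-fold higher in vil1 by mean RPKM. Of the 12 largest deficits, UGT74E2 and HSP23.6-MITO are those in which vil1 also passed as above WT, and their WT values follow further on.

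**Figure D3:**
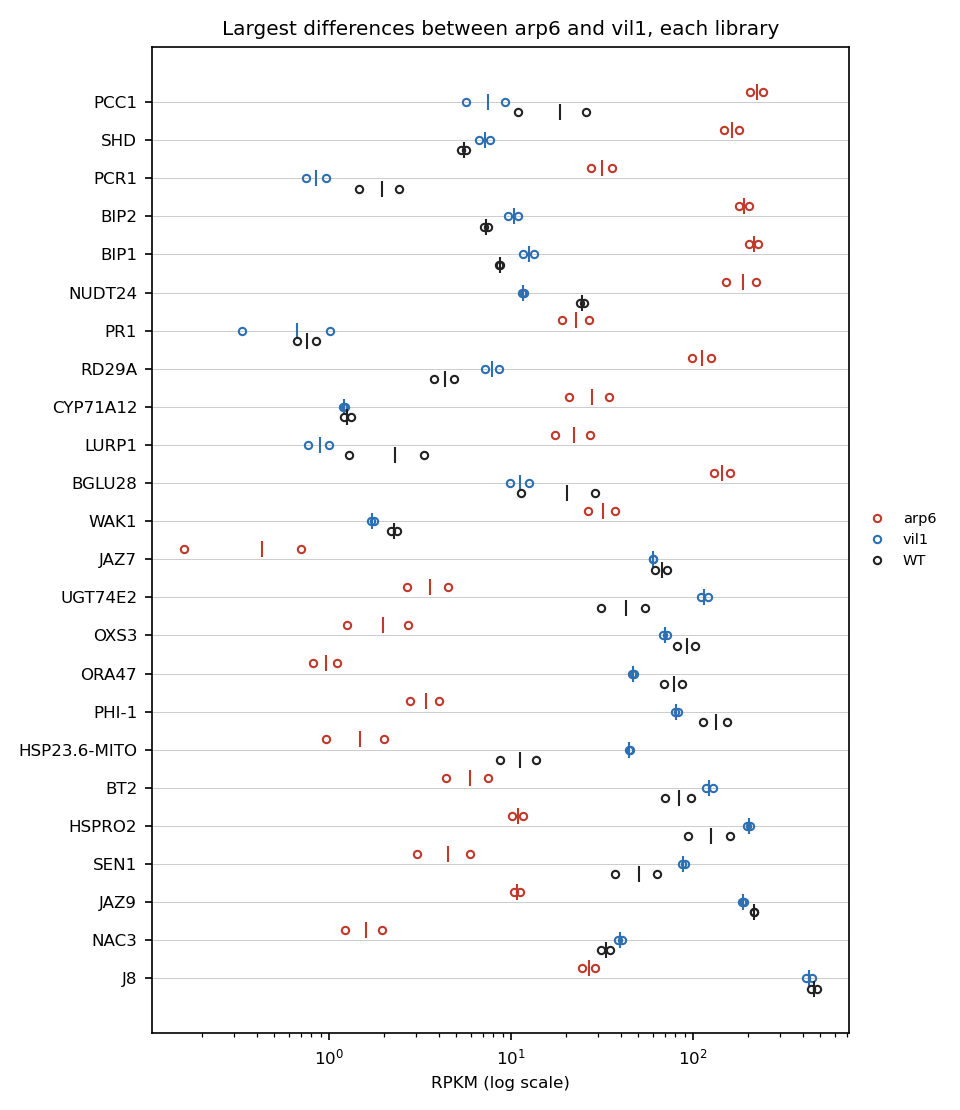
RPKM on a log scale for the 12 genes with the largest excess (PCC1 to WAK1) and the 12 with the largest deficit (JAZ7 to J8) in arp6 against vil1; circles are the 2 libraries of each group and the vertical tick is their mean. For JAZ7 the arp6 libraries read 0.159 and 0.703 RPKM, while vil1 and WT lie between 59.9 and 72.2.

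Most SWR1 and H2A.Z genes did not pass. Of 14 tested, 3 were higher and 2, ARP6 among them, lower in arp6, a share near the 32.3% of all features, with a median difference of 0.03 against -0.47 over all features. PIE1, the catalytic ATPase of the complex, had 7.03 and 6.72 RPKM in arp6 against 1.86 and 1.83 in vil1, a difference of 1.47 ± 0.12. INO80, the ATPase of a related remodeller, had 7.23 and 6.85 against 2.49 and 2.73, and the shared subunit ARP4 9.53 and 9.04 against 5.95 and 6.31. SEF, the SWC6 subunit, was lower, at 2.91 and 2.65 against 7.85 and 7.68. The H2A.Z genes did not pass under all 5 scalings, HTA9 being the most abundant at 58.7 and 52.3 against 81 and 74.8 RPKM and HTA11 standing at 10.2 and 9.72 against 10.8 and 9.55.

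Of 21 Polycomb components and H3K27 demethylases tested, 6 were higher and 2 lower in arp6, a share near the 32.3% of all features, with a median of 0.27. SWN, a catalytic subunit of PRC2, had 5.28 and 4.91 RPKM against 1.93 and 2.02, and RING1A, a PRC1 ubiquitin ligase, 5.67 and 5.81 against 1.94 and 2.58. Of the H3K27 demethylase genes, ELF6 and REF6 were higher, by 0.92 ± 0.11 and 0.83 ± 0.10, while JMJ32 was lower, at 0.333 and 0.453 against 2.57 and 2.30 RPKM, and JMJ30 did not pass at 4.34 and 4.39 against 3.83 and 3.88. ULT1, which counters Polycomb silencing, was lower by 0.93 ± 0.17. CLF, the other vegetative PRC2 methyltransferase, did not pass under all 5 scalings at 3.75 and 3.36 against 2.32 and 2.51 RPKM. The long genes of both lists, PIE1, INO80 and SWN, passed with the length trend removed, which the rule required of every gene called higher.

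FLC and several of its relatives were lower in arp6. FLC, the repressor that holds flowering back until winter has passed, stood at 0.187 and 0.233 RPKM in arp6, at 4.69 and 4.72 in vil1 and at 4.47 and 4.76 in WT. The difference from vil1 was -2.24 ± 0.10 (limma adjusted p = 7.27e-08), while vil1 and WT differed by 0.02 ± 0.10 (adjusted p = 0.868). MAF4 and MAF5, FLC-like repressors in tandem, had 0.197 and 0.347 and 0.0716 and 0.0559 RPKM in arp6 and between 2.18 and 3.44 in vil1. MAF1 (3.18 and 2.69 against 5.998 and 5.603) and the flowering-time gene FRI (2.57 and 2.55 against 5.38 and 5.18) were lower by smaller amounts. MAF2, of the same family, went the other way without passing under all 5 scalings, at 6.84 and 5.98 against 4.49 and 5.11. FLC, MAF4 and MAF5 lie in the range where the arp6 libraries lose reads in general. Their calls held with the background subtracted, which the rule required, and the part of that loss was not tested.

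Of 26 flowering-time genes tested, 11 were lower in arp6 and the other 15 did not pass under all 5 scalings. The largest differences were in the floral repressors TEM1, at 15.3 and 18.0 RPKM against 86.7 and 78.4, and RAV2 (TEM2), at 12.1 and 12.7 against 129.8 and 120.2. RAV2 differed by -3.23 ± 0.12 and TEM1 by -2.25 ± 0.14. The AP2-type repressor TOE3 was lower by 0.64 ± 0.10. FT, the mobile flowering signal, was under the filter for testing, at 0.272 and 0.385 RPKM in arp6 and 0.425 and 0.596 in vil1. The floral integrator AGL20 (SOC1) stood at 6.91 and 7.36 against 5.96 and 5.45 RPKM and did not pass under all 5 scalings.

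Few developmental genes known as Polycomb targets could be separated from the background. Of 17 tested, 14 were lower on the deposited scale, where 55.8% of all features were, but SEP3 alone passed under all 5 scalings, and it was higher in arp6. SEP3, a floral MADS-box factor, had 4.52 and 3.89 RPKM in arp6, 0.905 and 1.02 in vil1 and 1.26 and 1.54 in WT, a difference from vil1 of 1.40 ± 0.12 (adjusted p = 6.56e-06). Many of the others were near the detection limit: the homeobox gene STM, for instance, had 0.805 and 0.515 against 1.11 and 1.06 RPKM. The homeobox gene KNAT1, at 3.86 and 3.27 against 2.70 and 2.65, and the floral factor PI, at 0.968 and 1.46 against 3.12 and 2.51, were read at higher levels and did not pass under all 5 scalings. The lowest values move with the loss of low-level reads in the arp6 libraries, whose part in the result was not tested.

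In the age pathway, 9 of 22 miR156, miR172 and SPL loci tested were lower in arp6, 1 was higher and 12 did not pass under all 5 scalings, with a median of -1.01. The precursor loci MIR156A and MIR156C, whose mature miRNA keeps plants juvenile, had 1.35 and 0.781 and 1.42 and 1.11 RPKM in arp6 against 15.6 and 13.3 and 20.7 and 18.9 in vil1. MIR157C moved the other way, at 14.2 and 11.8 against 5.10 and 3.51, a difference of 1.41 ± 0.17. SPL13A, a target of miR156, was itself lower at 6.12 and 6.13 against 12.9 and 12.02. The values of MIR156A, MIR156C and MIR157C were the same, or nearly the same, as those of another feature in every library. Their reads therefore cannot be credited to these loci alone. These values count reads over the precursor loci, and mature miRNAs were not measured.

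Genes of PIF signalling and warm-induced growth were lower in 9 of 16 cases tested and higher in 2, with a median of -0.88. PIF4, the transcription factor that drives elongation in warmth, had 19.7 and 20.4 RPKM in arp6 against 42.7 and 42.6 in vil1, a difference of -1.05 ± 0.14 (adjusted p = 7.39e-05), with WT at 37.1 and 26.0. YUC8, an auxin synthesis enzyme under PIF4, had 1.64 and 1.97 against 4.44 and 4.16. PRE1 (0.846 and 0.528 against 6.92 and 7.52) and HB-2 (2.88 and 3.12 against 17.63 and 17.58), targets linked to cell elongation and shade, showed the widest gaps. PHYB, the red-light receptor that also senses temperature, was higher at 18.9 and 18.17 against 6.67 and 7.67.

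Of 19 SAUR genes, small auxin-induced proteins that promote cell expansion, 12 were lower in arp6, with a median of -1.36. SAUR65 had 3.61 and 2.90 RPKM against 17.64 and 15.5, and SAUR21 5.97 and 5.53 against 24.9 and 21.2. The SAUR19 to SAUR24 genes are close copies in tandem, so reads may be divided among them unevenly. Of 20 auxin response and transport genes 5 were lower, 2 higher and 13 did not pass under all 5 scalings. The share that passed was near the 32.3% of all features. The efflux carrier PIN3 had 16.7 in each arp6 library against 33.5 and 32.5. TAA1, an auxin synthesis enzyme, was higher at 9.67 and 9.44 against 3.52 and 3.55.

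Wall-loosening genes split in both directions. Of 25 expansin and xyloglucan-enzyme genes tested, 9 were higher and 6 lower in arp6. EXPA15 (38.7 and 35.5 RPKM against 8.13 and 8.56), EXPA5 (21 and 20.4 against 5.43 and 5.02) and XTH20 (19.6 and 21.2 against 4.21 and 3.63) were higher. XTH24 (109 and 84.1 against 565.6 and 529.4) and the touch-induced TCH4 (27.5 and 20.09 against 233.8 and 248.1) were lower. In the gibberellin and brassinosteroid list 8 of 27 were lower and 2 higher, together a share near the 32.3% of all features. The DELLA growth repressors RGA1 (29.1 and 29.5 against 69.0 and 68.3), RGL2 (2.06 and 1.55 against 5.13 and 5.97) and RGL3 (1.27 and 1.49 against 12.7 and 12.6) were among the lower genes, as was CPD, an enzyme of brassinosteroid synthesis, at 17.2 and 17.9 against 44.1 and 42.6.

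BSU1, a phosphatase of brassinosteroid signalling, stood at 0.111 and 0.0288 RPKM in arp6, at 0.975 and 1.08 in vil1 and at 3.62 and 2.77 in WT. The difference between vil1 and WT, -1.04 ± 0.13, passed under all 5 scalings (adjusted p = 0.00525). That between arp6 and vil1 did not: it was -0.92 ± 0.13 as deposited and 0.02 after quantile normalization.

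Of 24 salicylic acid defence genes tested, 15 were higher in arp6, and the other 9 did not pass under all 5 scalings. The median difference was 0.77. ACD6, an ankyrin protein that amplifies salicylic acid signalling, had 15.5 and 28.4 RPKM in arp6 against 2.06 and 2.26 in vil1. BGL2, the glucanase also called PR2, had 12.1 and 11.2 against 0.954 and 1.26, and EDS1, an upstream regulator of immunity, 10.3 and 11.6 against 3.38 and 4.34. The receptor gene NPR1 did not pass, at 13.4 and 14.9 against 15.5 and 15.1. Against WT, 18 of the 24 were higher in arp6, where 18.0% of all features were.

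Of 27 jasmonate and ethylene defence genes 13 were lower and 4 higher in arp6, and 10 did not pass under all 5 scalings, with a median of -0.89. JAZ10 had 0.935 and 1.10 RPKM in arp6 against 23.0 and 23.1 in vil1, JAZ6 12.7 and 12.1 against 73.3 and 73.4, and MYC2, the central activator of the pathway, 15.9 and 14.9 against 68.9 and 70.5. LOX2, a chloroplast lipoxygenase at the start of jasmonate synthesis, was among those higher, at 540.3 and 480.9 against 53.0 and 65.3, a difference of 3.09 ± 0.37. WT stood at 12.4 and 11.8 RPKM for JAZ10, between the mutants.

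Rapid stress regulators and touch genes, which respond within minutes to handling, wounding or cold, were mostly lower. Of 22 tested, 16 were lower and 2 higher in arp6, and the median was -1.54. ERF6 had 3.44 and 2.69 RPKM against 37.7 and 35.6, RRTF1 0.993 and 0.730 against 8.34 and 8.94, and ERF104 10.8 and 9.61 against 42.3 and 41.1. The cold and abscisic acid list divided, with 8 of 18 higher and 3 lower. RD22, a drought-induced gene, was higher at 268.3 and 283.6 against 95.2 and 99.1. RD26, a NAC factor of the abscisic acid response, was lower at 4.61 and 4.65 against 55.0 and 57.0, as was NCED3, a rate-limiting enzyme of abscisic acid synthesis, at 1.89 and 1.97 against 7.11 and 7.61.

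Heat shock and folding genes differed in both directions. Of 27 tested, 12 were higher and 5 lower in arp6. Those higher included the ER chaperones above, the constitutive cytosolic HSC70-1 (874.4 and 747.2 RPKM against 293.3 and 316.5) and the chloroplast chaperone CLPB3 (34.1 and 30.9 against 5.18 and 5.93). The 5 lower members were HSP23.6-MITO, HSP17.6A and the heat shock factors HSFA2, HSFA7A and HSFB2A. The small heat shock protein HSP18.2 (6.94 and 5.79 against 2.81 and 2.53) and the factor HSFB1 (22.8 and 28.7 against 13.98 and 12.6) were higher, so neither kind went one way. HSP70, the inducible cytosolic form, had 44.6 and 31.9 against 60.4 and 60.8 RPKM, a difference of -0.67 ± 0.21 (adjusted p = 0.0138). The HSP70 call was lost with the length trend removed (-0.54, adjusted p = 0.0544) and without vil1 replicate 2 (-0.66, adjusted p = 0.0522), where the difference changed little. It was also lost with median centring (-0.41, adjusted p = 0.15) and without arp6 replicate 2 (-0.43, adjusted p = 0.126).

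Nutrient lists differed from each other. All 11 sulfur starvation genes tested were higher in arp6, with a median of 1.61. APR1, an enzyme of sulfate reduction, had 159.6 and 149.5 RPKM in arp6 against 44.2 and 47.2 in vil1. The root sulfate transporters SULTR1;1 (7.70 and 15.1 against 1.05 and 1.204) and SULTR1;2 (35.4 and 48.7 against 13.2 and 12.1) showed the same order. Of the 11, 9 were above WT in arp6 and 2 below WT in vil1 under all 5 scalings, where 18.0% and 0.607% of all features were.

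Of 14 iron genes 5 were higher and 1 lower. The iron transporter IRT1 had 16.7 and 23.8 RPKM against 2.04 and 2.04, and the ferric reductase FRO2 5.71 and 9.68 against 1.43 and 1.65. Both act in root epidermis, and 7 of 12 root cell markers were higher in arp6 than in vil1, as given further on. Against WT, 2 of the 12 were higher in arp6, where 18.0% of all features were. The part of root content was not tested. The phosphate list split, with 7 of 19 higher and 4 lower. SPX1, an intracellular phosphate sensor, had 20.0 and 25.9 RPKM against 123.8 and 114.1, and the acid phosphatase PAP17 10.9 and 13.3 against 38.9 and 36.6. PHO2, which limits phosphate uptake, was higher at 30.7 and 30.3 against 8.36 and 9.88.

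Sugar starvation and darkness genes were lower in arp6 in 9 of 12 cases and higher in 1, with a median of -2.05. SEN1, a dark-induced marker, had 3.06 and 5.92 RPKM against 90.3 and 86.7. The transcription factor gene bZIP1 had 7.12 and 8.56 against 138 and 127.2, and ASN1, an asparagine synthetase induced in darkness, 3.35 and 7.95 against 94.3 and 91.5. WT lay between the mutants for SEN1 (63.3 and 37.2) and ASN1 (54.0 and 34.1). DRM1, a dormancy-associated gene, was lower at 27.7 and 26.3 against 184.8 and 165.8.

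Circadian clock genes differed in both directions. Of 24 tested, 11 were higher and 7 lower in arp6. The higher genes included the day and evening genes GI (43.1 and 41.6 RPKM against 11.1 and 13.4), ELF4 (68.2 and 68.4 against 20.8 and 18.7), PRR7, PRR5 and TOC1, as well as LNK1 (17.0 and 16.3 against 7.97 and 9.21), a partner of morning factors. Among the lower were the morning-phased LHY, RVE1 (0.457 and 0.461 against 7.32 and 7.00) and RVE8, with LNK3 (2.102 and 1.40 against 12.9 and 12.8) and LNK4 (5.80 and 4.07 against 41.5 and 40.1). CCA1 did not pass under all 5 scalings at 2.39 and 1.86 against 4.93 and 5.38. The labels give the same harvest hour to all samples, and a difference in the true hour or in day length was not tested.

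Pigment, light-harvesting and glucosinolate genes completed the lists. Flavonoid and anthocyanin genes were higher in 12 of 19 cases and lower in 1, MYBL2, a repressor of that pathway, at 30.9 and 26.4 RPKM against 132.9 and 142.3. DFR had 39.4 and 21.3 against 5.50 and 8.27, and LDOX 37.6 and 22.8 against 6.46 and 8.05. WT stood at 18.3 and 12.3 for DFR and at 18.3 and 21.3 for LDOX, above vil1. Of 22 antenna and Rubisco genes 9 were lower and 13 did not pass under all 5 scalings, with a median of -0.79. LHB1B1 had 1341 and 1302 RPKM against 4100 and 3841, and LHCB4.2 558.9 and 517.7 against 1519 and 1451. Chloroplast-encoded genes were lower on the deposited scale in 116 of 133 cases, where 55.8% of all features were. They were not counted under all 5 scalings. Of 17 glucosinolate genes 6 were higher and 2 lower, with the activator MYB28 at 17.36 and 18.4 against 4.40 and 4.07 and CYP79B3 at 2.62 and 3.54 against 13.2 and 12.7.

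**Figure D4:**
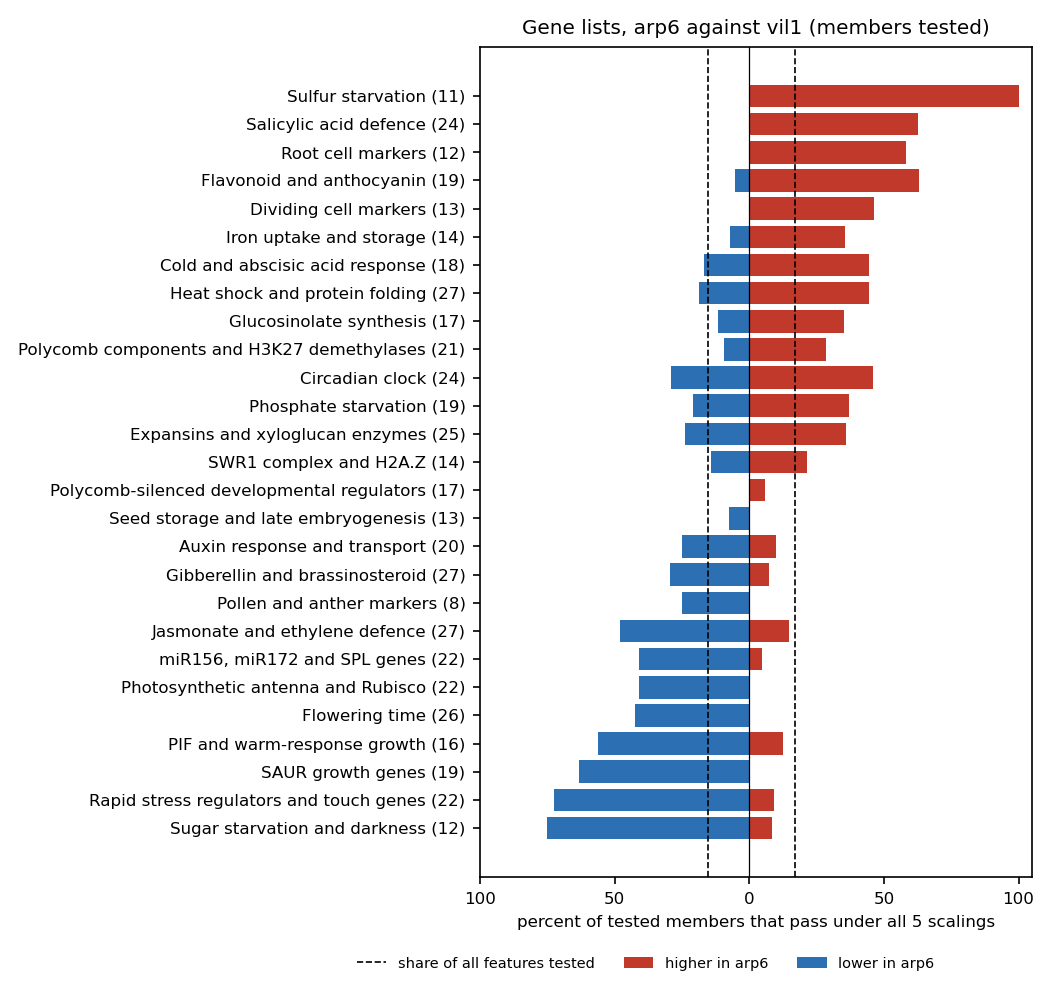
Percent of the tested members of each gene list (number in brackets) that were higher (red, to the right) or lower (blue, to the left) in arp6 than in vil1 under all 5 scalings; dashed lines give the shares over all features, 17.0% and 15.3%. Sulfur starvation lies at one end, with 11 of 11 higher, and sugar starvation and darkness at the other, with 9 of 12 lower.

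Against WT, vil1 stood apart in far fewer genes than arp6. On the deposited scale 4.1% of features passed for vil1 against WT and 82.3% for arp6 against WT, and under all 5 scalings 2.2% and 34.9% did. The comparisons share the WT libraries, and the share for arp6 carries the library differences described above. The genes named next were chosen after their values were seen: the 6 largest excesses and deficits of vil1 against WT that also passed on the deposited scale between arp6 and vil1. They were taken from nuclear protein-coding genes with a symbol and a mean of 10 RPKM or more in vil1 or WT. Passing against WT under all 5 scalings was required, as were vil1 and WT libraries that did not overlap and values not shared with another feature.

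QQS, a gene known from Arabidopsis alone that affects starch content, was the largest excess of vil1 under this rule. It stood at 17.8 and 17.3 RPKM in vil1, at 1.14 and 1.56 in WT and at 1.78 and 1.66 in arp6. The difference between arp6 and vil1 was -2.77 ± 0.12 (adjusted p = 8.47e-08), and that between vil1 and WT 2.99 ± 0.12 (adjusted p = 6.06e-06). The arp6vil1 libraries read 2.59 and 2.37 RPKM, nearer to WT than to vil1; they too stood apart, with 55.7% and 53.3% of summed RPKM in nuclear coding genes against 78.6% and 78.3% in vil1.

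HSP23.6-MITO, a mitochondrial small heat shock protein, had 44.8 and 44.6 RPKM in vil1, 13.6 and 8.73 in WT and 2.01 and 0.966 in arp6. SRG3, a glycerophosphodiester phosphodiesterase induced by phosphate shortage, had 76.5 and 67.5 in vil1, 30.6 and 22.2 in WT and 8.27 and 11.4 in arp6. UGT74E2, which glucosylates an auxin precursor, had 110.4 and 120.2 in vil1, 54.3 and 31.4 in WT and 4.49 and 2.67 in arp6. In these 3 genes WT lay between the single mutants. HSP70 (60.4 and 60.8 RPKM in vil1 against 25.3 and 14.8 in WT) and the cold-induced COR15B (80.6 and 77.7 against 30.1 and 25.3) were also above WT in vil1, and in arp6 both were above WT as well.

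Among genes below WT in vil1, MRD1 had 6.98 and 6.15 RPKM against 29.8 and 38.2 in WT and 21.3 and 18.5 in arp6. HEI10, a meiotic crossover protein, had 3.69 and 3.47 against 13.6 and 17.5 in WT and 9.98 and 8.57 in arp6; the annotated spans of MRD1 and HEI10 overlap, so their reads cannot be told apart. CBR, a cytochrome b5 reductase, had 8.04 and 8.39 in vil1, 27.2 and 23.58 in WT and 47.1 and 47.6 in arp6. For LSU1, a sulfur-starvation gene, vil1 read 144.4 and 138.1, WT 375.4 and 470.6 and arp6 546.4 and 448.1. GSTF12, which carries anthocyanins to the vacuole, had 9.60 and 11.6 in vil1, 26.3 and 42.7 in WT and 30.7 and 18.4 in arp6. The zinc-finger gene ZAT7 was below WT (12.05 and 13.6) in both mutants, at 4.54 and 3.29 in vil1 and 1.70 and 2.36 in arp6.

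Some vil1 against WT calls did not hold with 1 library fewer. For UGT74E2, HSP23.6-MITO, GSTF12 and LSU1 the call was lost without either vil1 library or without WT replicate 2, for HSP70 without either vil1 library, and for SRG3 without vil1 replicate 1. Adjusted p in these fits ran from 0.0628 to 0.165, while the differences stayed close to those with all libraries where a vil1 library was left out: 1.94 each time for HSP23.6-MITO, for example, and 1.52 and 1.40 for UGT74E2 against 1.46. Without WT replicate 2 they were 1.64 and 1.07 for these genes. QQS, COR15B, MRD1, HEI10, CBR and ZAT7 passed against WT in each of them.

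**Figure D5:**
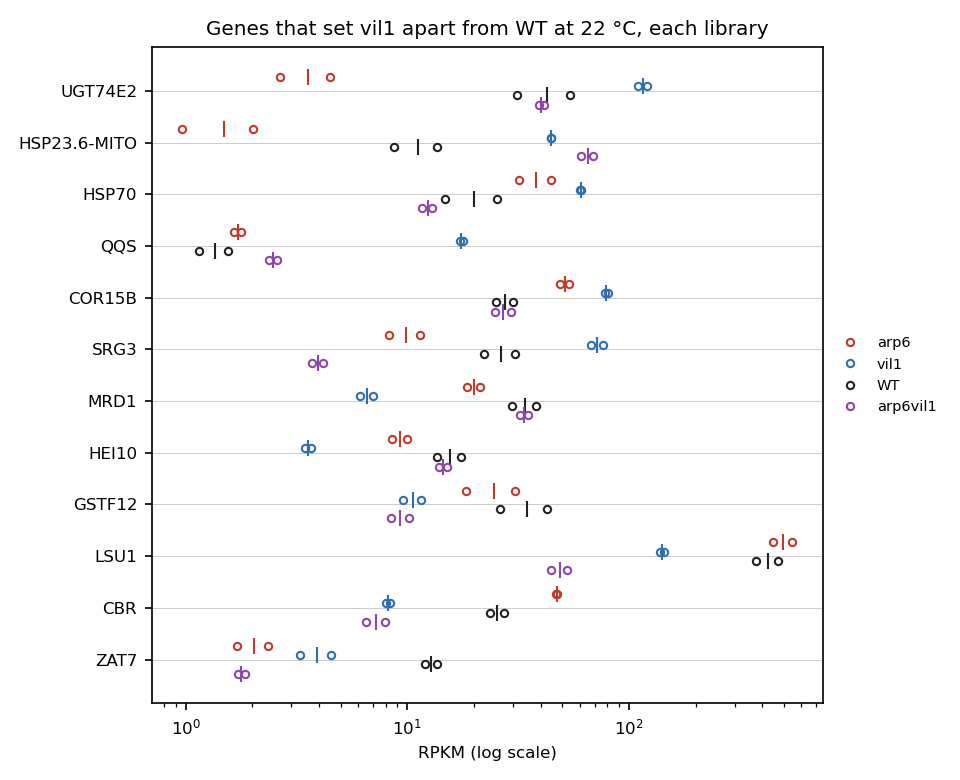
RPKM on a log scale for the 6 genes with the largest excess (UGT74E2, HSP23.6-MITO, HSP70, QQS, COR15B, SRG3) and the 6 with the largest deficit in vil1 against WT at 22 °C, among genes that met the rule in the text. Circles are the 2 libraries of each of 4 genotypes and ticks their means. QQS reads 17.8 and 17.3 in vil1 and between 1.14 and 2.59 in the other 3 genotypes.

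Summed levels of cell type markers also differed between the mutants. The summed level of 12 root markers was 86.7 and 86.8 RPKM in arp6 against 52.7 and 55.6 in vil1. Of the 12, 7 were higher under all 5 scalings, where 17.0% of all features were. WT lay at 62.9 and 84.1. The 13 dividing-cell markers summed to 50 and 44.2 against 30.4 and 31.4, with 6 of 13 higher, among them the mitotic regulator CDC20.1 at 7.84 and 7.44 against 3.13 and 3.65. Seed storage genes summed to 5.89 and 1.10 in arp6 against 14.3 and 15.5, and 5 of the 13 were at 0 in arp6 replicate 2. Pollen and anther genes summed to 9.54 and 8.03 against 23.4 and 22.8, with 3 and 2 of 10 at 0 in arp6. Under all 5 scalings 1 of 13 seed storage genes and 2 of 8 pollen and anther genes tested were lower, where 15.3% of all features were. The part of the loss of low-level reads in these sums was not tested. In whole seedlings, fewer cells of a type and less RNA per cell cannot be told apart, and the part of tissue make-up in the gene groups above was not tested.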

How the data were processed

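Per the submitters' processing notes, FastQC, HISAT2, Bowtie2, SAMtools, bedtools and edgeR were used with TAIR10; the counter, its strand setting and tool versions are not given in the sources used here. The authors deposited RPKM values for 34262 features in 12 RNA-seq libraries. Multiplied by gene span, introns included, they gave whole reads (within 0.02) for 32532 of 32548 features with a RefSeq span, and hence the depths. Gene names came from RefSeq (TAIR10.1).

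Tests used limma 3.58.1 (R 4.3.3) on log2(RPKM + 1) with 6 groups of 2 libraries, a variance trend, keeping features that reached 1 RPKM in 2 or more libraries, with Benjamini-Hochberg adjustment over 31454 features and a threshold of 0.05; the code was tested on simulated data. Fold changes on this scale understate the change of low genes. The 5 scalings were the deposited values, subtraction of each library's 10th percentile of coding genes, removal of a lowess trend (span 0.3) on gene span, quantile normalization and median centring. The rule for named genes took the 12 largest differences each way with a mean of 10 RPKM or more in the higher group, passing under all 5 scalings; up to 5 members per list at 5 RPKM or more; and 9 set genes. Further list members are given for context. Members and the 27 lists (527 of 545 entries matched) were chosen with earlier results of these data known. Of 150 named genes, 37 overlap another locus. Precision is limited by 2 libraries a group.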

Additional observations from a re-analysis of the deposited data

How the results depend on the processing

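The count of genes higher in arp6 (6329) became 2262 with a mean of 10 RPKM or more required, 4088 with 5 or more and 1778 with an absolute log2 difference of 1 or more. The count lower (17562) became 3450, 5815 and 5828 under the same settings, 9129 with background subtracted, 8875 with the length trend removed and 7834 with quantile normalization; the first 3 test or count fewer genes, and the cause of the others was not tested. Leaving out 1 library gave 5208 to 5654 higher and 15073 to 15563 lower, and 4256 to 4570 and 3636 to 3918 under all 5 scalings. The replicate numbers did not pair the arp6 and vil1 libraries at 22 °C, whose same-numbered deviations correlated at 0.004. Between other groups this correlation ran from -0.249 (vil1 at 27 °C with WT at 22 °C) to 0.22 (WT at 27 °C with WT at 22 °C). A replicate block gave 6198 higher and 17298 lower. limma-voom on recovered reads gave 6343 and 16805. All 149 named genes tested passed for arp6 against vil1 on the deposited scale, where 76.0% of all features did. Most were chosen for passing, and those with the largest differences had to pass under all 5 scalings, so the choice favoured stable genes. Of these 149, 143 kept direction and call under all 19 alternatives that could be run on them, apart from the log2 size limit. The 6 that did not were BSU1, BTS, COR15B, HSP70, IAA2 and ZAT7. BSU1 turned from -0.92 to 0.016 with quantile normalization, and ZAT7 from -0.70 to 0.00092 with the length trend removed. Genes under about 2 RPKM are limited by the loss of low reads in arp6.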

Other observations

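Starch breakdown and ER folding genes were gathered into lists after the named genes had been seen, so their counts describe and support nothing. All 11 starch genes tested were higher in arp6, with a median log2 difference of 1.89. SEX1, the glucan water dikinase that starts starch breakdown, had 87.3 and 91.8 RPKM in arp6, 8.79 and 11.2 in vil1 and 5.86 and 4.37 in WT. The beta-amylase CT-BMY had 141.4 and 135.9 RPKM against 15.6 and 18.0 in vil1, and the cytosolic glucan phosphorylase PHS2 196.9 and 199.9 against 24.0 and 28.9. Members with small differences also passed as higher, such as the maltose exporter MEX1 at 16.6 and 15.2 against 11.7 and 11.6.

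Of 14 ER folding genes 13 were higher in arp6, with a median of 2.64. The protein disulfide isomerase PDIL1-1 had 84.6 and 102.4 RPKM against 9.77 and 10.9, and the lectin chaperone CNX1 191.8 and 230 against 32.1 and 35.5. The exception was BZIP60, a transcription factor of the unfolded protein response, lower at 22.05 and 22.4 against 41.4 and 39.8 RPKM. In the arp6vil1 libraries SHD read 3.15 in each and BIP2 4.34 and 3.73 RPKM, values below those of WT. The median nuclear coding gene was also lower there, at 1.94 and 1.79 RPKM against 3.98 and 4.39 in WT. The part of this library difference in the SHD and BIP2 values was not tested.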
